A study of Homo sapiens with 22 samples.

Results

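The inflammatory chemokines described here are 10 genes of 60669 in the annotation of the deposited tables: CXCL1, CXCL2, CXCL3, CXCL5, CXCL6, CXCL8, CXCL16, CCL2, CCL5 and CCL20. They were chosen by gene name, with the row of the highest mean taken where a name stood on more than 1 row. Apart from that choice of row the rule uses no measured value, but the set of names was drawn up with earlier results of these data known. The cells were MDA-MB-231, a human line established from triple-negative breast cancer, and RNA-seq of 11 groups of 2 libraries (22 in all) is spread over 3 tables. The study joins drugs against BET proteins, which read acetylated histones through bromodomains, with METTL3, the enzyme of the complex that writes m6A (N6-methyladenosine) into RNA. The knockdown table has 4 groups kept for 2 to 3 months: B5, shM3, and 2 groups in which shM3 cells received METTL3-WT (shM3_WT) or METTL3-CD (shM3_CD). In the DMSO table cells were given DMSO, JQ1, Molib or I-BET151, and in the CTRL table they were labelled CTRL, JQ1 or MW_JQ1; every compound was used at 0.5 µM and every one of these groups was kept for 3 days. All libraries carry the genotype label WT. The labels explain neither B5 nor MW, give no sequence for the short hairpin, and do not say whether the infected cells were pools or single clones. JQ1 and I-BET151 are small molecules that block the bromodomains of BET proteins.

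Chemokines are small secreted proteins that draw leukocytes along a gradient through G protein-coupled receptors. CXCL1, CXCL2, CXCL3, CXCL5, CXCL6 and CXCL8 are neutrophil attractants that act through CXCR2 (CXCL6 and CXCL8 also through CXCR1), CCL2 draws monocytes through CCR2, CCL5 draws T cells and monocytes, and CCL20 acts through CCR6. CXCL16 is made as a membrane protein, is shed by ADAM10 and ADAM17, and binds CXCR6. Many of these genes are induced by interleukin 1 and tumour necrosis factor through NF-kB, often together with AP-1 and C/EBP factors, and their short-lived mRNAs are destabilised through AU-rich elements. CXCL8 and CXCL1 are known to be made at high levels by basal-like breast cancer lines.

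The 6 neutrophil attractants lie together on chromosome 4, within 358.8 kb of hg38 (73740506 to 74099293, GENCODE release 29), in the order CXCL8, CXCL6, CXCL1, CXCL5, CXCL3 and CXCL2. CXCL16 (4733526 to 4739922), CCL2 (34255218 to 34257203) and CCL5 (35871491 to 35880793) are on chromosome 17 and CCL20 (227805739 to 227817564) is on chromosome 2. RefSeq promoter windows of GRCh38.p14, from 250 bases before to 50 after the start, were matched for 7 of the 10 genes; CXCL16, CCL2 and CCL5 had no entry. Each promoter was searched on both strands for GGANNTTCC, a form of the NF-kB site, and for TGANTCA, a form of the AP-1 site. All 6 genes of the chromosome 4 group held the same 9 letters, GGAATTTCC, beginning between positions -91 and -77 from the RefSeq start, and CCL20 held neither motif. GGANNTTCC was found in 1603 of 35116 promoter windows (4.56%), and the exact letters GGAATTTCC, searched for after the sequences had been seen, in 162 (0.46%). The sites are shown with their flanks because 4 of these genes, CXCL1, CXCL2, CXCL3 and CXCL8, carry most of the values below. In the 30-base stretches below, written 5′ to 3′ on the strand of the gene, capitals mark the match to GGANNTTCC.
CXCL1: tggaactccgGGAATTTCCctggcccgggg
CXCL2: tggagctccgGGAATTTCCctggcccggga
CXCL3: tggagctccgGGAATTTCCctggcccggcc
CXCL5: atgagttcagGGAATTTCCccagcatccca
CXCL6: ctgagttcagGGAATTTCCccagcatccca
CXCL8: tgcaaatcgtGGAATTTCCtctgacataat
The stretches lie at chr4:73869305-73869334 (CXCL1, plus strand), chr4:74099253-74099282 (CXCL2, minus), chr4:74038748-74038777 (CXCL3, minus), chr4:73998748-73998777 (CXCL5, minus), chr4:73836579-73836608 (CXCL6, plus) and chr4:73740468-73740497 (CXCL8, plus). By the GENCODE positions those of CXCL1 and CXCL8 lie upstream of the gene, and those of CXCL2, CXCL3, CXCL5 and CXCL6 lie inside it.

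Within these 30 bases CXCL1 and CXCL2 shared 28, CXCL1 and CXCL3 27, CXCL2 and CXCL3 28, and CXCL5 and CXCL6 29. CXCL1, CXCL2 and CXCL3 shared 17 to 19 with CXCL5 and CXCL6, and CXCL8 shared 14 to 17 with the others. These counts include the letters GGAATTTCC, on which the stretches were lined up. CXCL8 was the only one of the 7 promoters with TGANTCA, which 7.71% of all promoter windows hold. Its match, TGACTCA, begins at position -137 from the RefSeq start. The 87 bases at chr4:73740419-73740505, upstream of the start in RefSeq and in GENCODE, show both matches in capitals.
CXCL8: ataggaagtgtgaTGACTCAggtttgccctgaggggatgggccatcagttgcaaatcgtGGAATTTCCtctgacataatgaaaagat
CXCL1 is shown for comparison over the 150 bases before its start, chr4:73869243-73869392, with its single match in capitals.
CXCL1: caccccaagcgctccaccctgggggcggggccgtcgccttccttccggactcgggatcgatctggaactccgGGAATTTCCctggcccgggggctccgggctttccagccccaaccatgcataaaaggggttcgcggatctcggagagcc
These are matches of letters and were not tested for binding. CXCL1, CXCL2 and CXCL3 are near-identical paralogs, and how the authors assigned fragments that align to more than 1 of them is not given in the sources used here, so the split of the signal among these 3 genes is uncertain.

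Levels are FPKM, fragments divided by gene length and library total, so genes can be compared with each other; read depth per library is unknown. Folds are ratios of mean FPKM. Log2 fold changes and tests come from limma on log2(FPKM + 1), a scale that understates the change of low genes, over the genes that reached 1 FPKM in 2 libraries of a table or more. Genes were called at a Benjamini-Hochberg adjusted p under 0.05 over all genes of the table. Whether both libraries of a group are separate cultures is not stated, and p-values here reflect only how far these samples spread, which may be technical. Where both libraries of a group are said to lie above or below those of another, the share of all genes that do so was not counted. The targeted gene METTL3 had 4.39 and 4.80 FPKM in shM3 against 20.1 and 23.8 in B5, and reached 312 and 311 with METTL3-WT and 277 and 270.5 with METTL3-CD. HEXIM1, a gene that BET inhibitors are known to raise, was 1.71-fold lower in shM3_WT than in shM3 (limma adjusted p = 0.0012). All 8 libraries of the DMSO table had METTL3 between 13.7 and 27.2 FPKM. CTRL libraries had 31.2 and 1.18 FPKM of it, those of JQ1 beside them 11.8 and a listed 0, and MW_JQ1 had 212 and 234. HEXIM1 was 2.69-fold higher in JQ1 and 2.55-fold higher in Molib than in DMSO (limma adjusted p = 0.0017 and 0.0019), but 3.35-fold lower in the libraries labelled I-BET151 (10.3 and 6.37 against 26.5 and 29.4 FPKM, adjusted p = 0.0011). That goes against their label, so they are called by it and no more. The CTRL and JQ1 libraries of the CTRL table stood apart: 3374 to 5301 of their 14954 genes were listed at 0, against 306 and 276 in MW_JQ1, and the small RNA gene RN7SL1 was their highest at 37440 to 52950 FPKM, against 23.8 and 57.6. In B5 replicate 2 the gene PIDD1 was listed at 8234000 FPKM. All 8 mesenchymal markers of MDA-MB-231 (VIM, CD44, EGFR, ZEB1, AXL, CAV1, MSN and PLAU) were at 1 FPKM or more in every group, but their levels moved too: 5 were called lower and 1 higher in shM3 against B5, 4 higher in shM3_WT against shM3, 6 higher in shM3_WT against shM3_CD, 4 lower and 2 higher in JQ1 and in Molib against DMSO, and 4 higher and 3 lower in the libraries labelled I-BET151 against DMSO. In this order of comparisons, the share of the 8 that was called was 75, 50, 75, 75, 75 and 87.5%. The share of all genes called was 37.8, 39.4, 25.9, 35.1, 35.3 and 28.0%. For shM3_WT against shM3 the marker share is thus not far above that of all genes. The part of these markers in the results was not tested. Of 8 haematopoietic markers CD3E and MS4A1 were listed at 0 in all 16 libraries of the knockdown and DMSO tables. Others were present: 3 of the 8 averaged 1 FPKM or more in B5, 1 in shM3 and 2 in shM3_WT and in shM3_CD. That number was 2 in DMSO and in the libraries labelled I-BET151, and 0 in JQ1 and Molib.

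In the knockdown table CXCL8 and CXCL1 were the highest members in each of the 4 groups, and the sum over the 10 genes ran from 57.1 and 61.8 FPKM in shM3 through 82.3 and 94.7 in B5 and 406 and 413 in shM3_CD to 676 and 692 in shM3_WT. CXCL8 made up 31.6 to 33.7% of that sum in B5 and shM3, 41.9 and 43.4% in shM3_CD and 50.7 and 52.6% in shM3_WT. CXCL5, CXCL6 and CCL2 stayed under the filter, with no library above 0.81 FPKM, so 7 members were tested. CXCL5 and CXCL6 were listed at 0 in B5 and shM3.

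**Figure D1:**
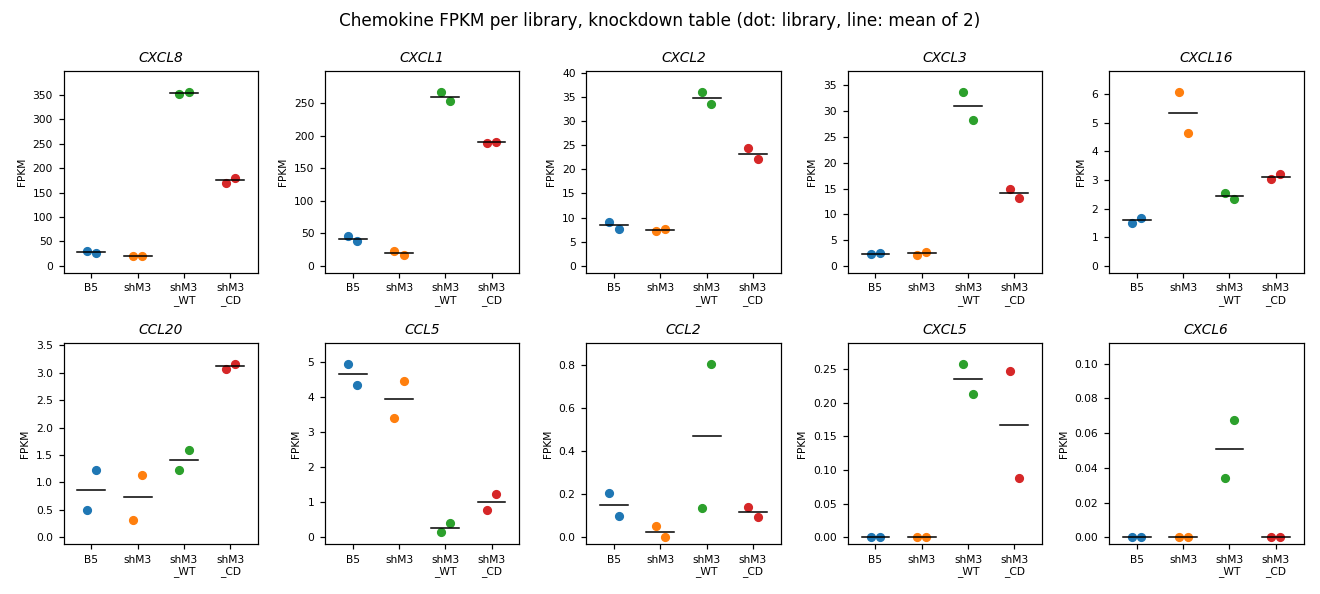
Panels show 1 chemokine gene each from the knockdown table, with FPKM on a linear y axis that differs between panels and the 4 groups on the x axis; dots are libraries and lines the mean of 2. CXCL8, CXCL1, CXCL2 and CXCL3 are highest in shM3_WT, next in shM3_CD and low in B5 and shM3, whereas CCL5 is high in B5 and shM3 and low in both groups with METTL3 added back.

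The first comparison asked how chemokine levels differed where METTL3 was lowered. CXCL8 had 19.6 and 19.3 FPKM in shM3 against 30.5 and 27.1 in B5. CXCL1 was at 45.8 and 37.9 in B5 and at 23.0 and 17.4 in shM3. Both shM3 libraries lay below both B5 libraries for either gene, 1.48-fold lower for CXCL8 (log2 fold change -0.54, SE 0.08, limma adjusted p = 0.0022) and 2.07-fold lower for CXCL1 (-1.02, SE 0.14, 0.0017). CXCL16, the shed transmembrane chemokine, went the other way: shM3 had 6.07 and 4.63 FPKM against 1.51 and 1.65 in B5, 3.38-fold higher (1.29, adjusted p = 0.00067). CXCL2 (7.27 and 7.54 in shM3 against 9.08 and 7.65 in B5), CXCL3, CCL5 and CCL20 did not pass, with log2 fold changes between -0.20 and 0.04. In all, 1 member of the 7 tested was called higher and 2 lower, beside 37.8% of all genes called in this comparison, so the count of 3 is near the background. The median log2 fold change of the 7 was -0.15, against 0 over all genes tested.

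With METTL3-WT added back, the 4 neutrophil attractants that could be tested rose by 4.7 to 18.2-fold over shM3. CXCL8 was at 351 and 355 FPKM in shM3_WT, 18.2-fold above shM3 (log2 fold change 4.12, SE 0.08, limma adjusted p = 1.5e-06). CXCL1 was at 267 and 253, 12.9-fold higher (3.63, adjusted p = 1.5e-05). CXCL3 went from 2.12 and 2.70 in shM3 to 33.7 and 28.2, 12.9-fold higher (3.23), and CXCL2 from 7.27 and 7.54 to 36.0 and 33.6, 4.70-fold higher (2.09). For each of these 4 the lowest shM3_WT library was above the highest shM3 library, but how many of all genes split in this way was not counted. The T cell attractant CCL5 fell from 3.40 and 4.45 FPKM to 0.15 and 0.40, 14.2-fold lower (-1.95, adjusted p = 0.00035), and CXCL16 fell 2.19-fold (2.56 and 2.34 FPKM, -0.87, adjusted p = 0.0032). CCL20 was at 1.24 and 1.59 against 0.32 and 1.13 and did not pass (adjusted p = 0.17). Thus 4 of 7 members were called higher and 2 lower, beside 39.4% of all genes, and the members' median log2 fold change was 2.09 against -0.08 over all genes.

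METTL3-CD gave the same 4 genes higher levels than shM3, by 3.14 to 9.40-fold. CXCL8 was at 170 and 179.6 FPKM in shM3_CD (9.01-fold higher, log2 fold change 3.11, limma adjusted p = 7.2e-06) and CXCL1 at 189 and 190.7 (9.40-fold, 3.18, adjusted p = 9.3e-05). CXCL3 was at 14.9 and 13.2 (5.83-fold) and CXCL2 at 24.4 and 22.1 (3.14-fold). CCL20, at 3.07 and 3.17 FPKM, was 4.29-fold higher than in shM3 (1.29, adjusted p = 0.026), CCL5 was 3.94-fold lower at 0.77 and 1.22 (-1.30, adjusted p = 0.0071), and CXCL16 was 1.72-fold lower at 3.02 and 3.21 (-0.62, adjusted p = 0.037). All 7 tested members were called, 5 higher and 2 lower, beside 11.4% of all genes, with a median of 1.53 against 0.01 over all genes. The calls of the last 3 genes rest on single libraries. Without shM3 replicate 1, shM3_CD replicate 1 or shM3_CD replicate 2 the adjusted p of CCL20 was 0.11, 0.11 and 0.12 and that of CXCL16 0.16, 0.16 and 0.13. CCL5 was at 0.05 without shM3 replicate 2 or shM3_CD replicate 1, and without the latter 4 members were called.

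Set directly against each other, shM3_WT was above shM3_CD for CXCL8, CXCL3 and CXCL2. CXCL8 was 2.02-fold higher (353 ± 3.19 against 175 ± 6.84 FPKM, SD, n = 2; log2 fold change 1.01, limma adjusted p = 0.00069). CXCL3 was 2.2-fold higher (1.08, adjusted p = 0.0025) and CXCL2 1.5-fold (0.56, adjusted p = 0.01). CCL5 was 3.61-fold lower in shM3_WT (0.275 ± 0.17 against 0.994 ± 0.321 FPKM, n = 2, limma adjusted p = 0.043). CXCL1 was 1.37-fold higher, with both shM3_WT libraries above both shM3_CD libraries, and missed the threshold (0.45, adjusted p = 0.053); it passed at 0.014 to 0.047 with TMM factors, with equal medians, with a filter of 5 FPKM, with a pseudocount of 5 and with only these 2 groups in the fit. CCL20 was 2.2-fold lower and CXCL16 1.27-fold lower in shM3_WT without passing (adjusted p = 0.078 and 0.23); CCL20 passed with a pseudocount of 5 (0.03) and with only these 2 groups in the fit (0.021). So 3 members were called higher and 1 lower, beside 25.9% of all genes. Leaving out shM3_WT replicate 1 or shM3_CD replicate 2 ended the call of CXCL2 (adjusted p = 0.061 and 0.065) and left 2 members called, and leaving out any 1 of the 4 libraries ended that of CCL5 (0.063 to 0.20), as did TMM factors (0.054), equal medians (0.055), a pseudocount of 5 (0.13) and no filter (0.11). METTL3 itself did not pass between the 2 groups (312 ± 0.608 against 274 ± 4.47 FPKM, n = 2, limma adjusted p = 0.18).

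Against B5 rather than shM3, both groups with METTL3 added back had higher neutrophil attractants and lower CCL5; these comparisons share libraries with those above. In shM3_WT against B5, CXCL3 was 13.4-fold, CXCL8 12.3-fold, CXCL1 6.22-fold and CXCL2 4.16-fold higher (limma adjusted p of 8e-05 or less), while CCL5 was 16.8-fold lower (adjusted p = 0.00044). CCL20, at 1.24 and 1.59 FPKM in shM3_WT against 0.50 and 1.22 in B5, did not pass (0.31). That made 5 of 7 members called, 4 higher and 1 lower, beside 30.0% of all genes. In shM3_CD against B5 all 7 were called, 6 higher and 1 lower, beside 29.9% of all genes. CXCL3 was 6.08-fold, CXCL8 6.08-fold, CXCL1 4.54-fold, CCL20 3.62-fold, CXCL2 2.78-fold and CXCL16 1.96-fold higher, and CCL5 4.66-fold lower. CCL20 lost its call without B5 replicate 1 (0.081), shM3_CD replicate 1 (0.071) or shM3_CD replicate 2 (0.077), and CXCL16 without shM3_CD replicate 1 (0.053) or 2 (0.069). CXCL16, at 2.45 ± 0.153 FPKM in shM3_WT against 1.58 ± 0.0993 in B5 (n = 2), was above both B5 libraries without passing (limma adjusted p = 0.065); it passed with a pseudocount of 0.1 (0.044), TMM factors (0.036) and equal medians (0.034).

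The wider pathway moved unevenly in the knockdown table. The share called among all genes is 39.4% for shM3_WT against shM3, 11.4% for shM3_CD against shM3 and 37.8% for shM3 against B5, and list shares near or below it are no result about a list. Among 16 upstream cytokines and receptors, of which 15 were tested, 5 rose and 3 fell in shM3_WT against shM3 (53.3% called). CSF2, the granulocyte-macrophage colony-stimulating factor, was 20.9-fold higher, the NF-kB inducer IL1B 11.2-fold and LIF 1.84-fold. In shM3_CD against shM3, 5 of these 15 rose and none of the 15 fell, led by IL1B (12-fold), IL6 (3.23-fold) and CSF2 (7.56-fold). Of 17 NF-kB subunits, kinases and inhibitors 1 rose and 4 fell in shM3_WT, 29.4% called and so below the share of all genes. TRAF6 was 2.00-fold, IKBKG 1.39-fold and MYD88 2.62-fold lower. In shM3_CD 2 of the 17 rose, the co-factor BCL3 (1.65-fold) and NFKBIZ (1.87-fold). That is 11.8% called, near the 11.4% of all genes, and is no result about this list. Against B5, shM3 had 7 of these 17 higher and 1 lower (47.1% called), with NFKB2 1.47-fold and RELB 1.57-fold higher and BCL3 1.86-fold lower. Of 15 partner transcription factors tested 7 fell and 2 rose in shM3_WT (60% called), and JUNB was 2.50-fold, JUND 2.40-fold and IRF7 2.05-fold lower than in shM3. In shM3_CD 4 of the 15 fell and 2 rose, with FOSL1 1.51-fold and JUNB 1.36-fold lower.

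Factors of AU-rich mRNA turnover also differed. Of 12 tested, 3 rose and 6 fell in shM3_WT against shM3: ZC3H12A, a nuclease that cleaves inflammatory mRNAs, was 3.99-fold higher, the phosphatase gene DUSP1 3.69-fold lower and the decay factor ZFP36L1 1.89-fold lower. In shM3_CD 1 rose, ZC3H12A (5.03-fold), and 3 fell, among them ZFP36 (2.00-fold lower) and ZFP36L1 (1.49-fold lower). DUSP1 had been 4.44-fold higher in shM3 than in B5. Proteases that shed or cleave chemokines make a list of 8, of which 6 were tested; 3 rose and 1 fell in shM3_WT against shM3, with MMP1 7.67-fold, MMP14 1.96-fold and MMP9 10.8-fold higher. MMP9 passed the filter only through shM3_WT. Of the 29 other chemokine ligands 5 were tested, and CXCL10 alone passed in this comparison, 3.03-fold lower. In shM3 against B5 3 of those 5 were lower, including CXCL10 (2.26-fold), CX3CL1 (4.23-fold) and CXCL11 (1.54-fold). Of 4 receptors tested 2 fell in shM3_WT against shM3, CCRL2 by 1.63-fold and CXCR5 by 1.60-fold, and 3 fell in shM3_CD, CXCR4 by 2.32-fold the most of them. The haematopoietic markers summed to 12.9 and 22.9 FPKM in B5 and 5.38 to 8.73 in the other 3 groups, with 3 of 3 tested lower in shM3 than in B5. The fibroblast and endothelial markers summed to 11.9 to 12.8 FPKM in B5, 9.69 to 9.79 in shM3, 7.91 to 8.87 in shM3_CD and 4.42 to 4.89 in shM3_WT, with 4 of 4 tested lower in shM3_WT than in B5. LYZ of the haematopoietic list and LUM and COL1A2 of the fibroblast and endothelial list passed the filter only through B5. The counts of these lists against B5 were therefore in part set by it. Of the luminal epithelial markers 3 of 4 tested were lower in shM3_WT than in shM3. The part of these markers in the chemokine differences was not tested. In bulk RNA, fewer cells making a chemokine and less RNA per cell cannot be told apart.

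In the DMSO table the chemokine level without inhibitor was high. CXCL8 was at 275 and 283 FPKM in DMSO, CXCL1 at 207 and 206, CXCL3 at 49.8 and 46.8 and CXCL2 at 34.3 and 33.3. CCL2, CCL20 and CXCL16 were between 0.93 and 2.15, CXCL5 was at 0.30 and 0.49, CCL5 at 0.09 and 0.10, and CXCL6 was near 0. The 2 JQ1 libraries of this table could be assigned only by elimination, since both JQ1 groups of the study have columns of the same name, and are called libraries a and b. Of the 10 members 8 were tested. CCL5 and CXCL16 passed the filter only through the libraries labelled I-BET151 and CCL2 only through those of DMSO, and CXCL5 and CXCL6 did not pass it.

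**Figure D2:**
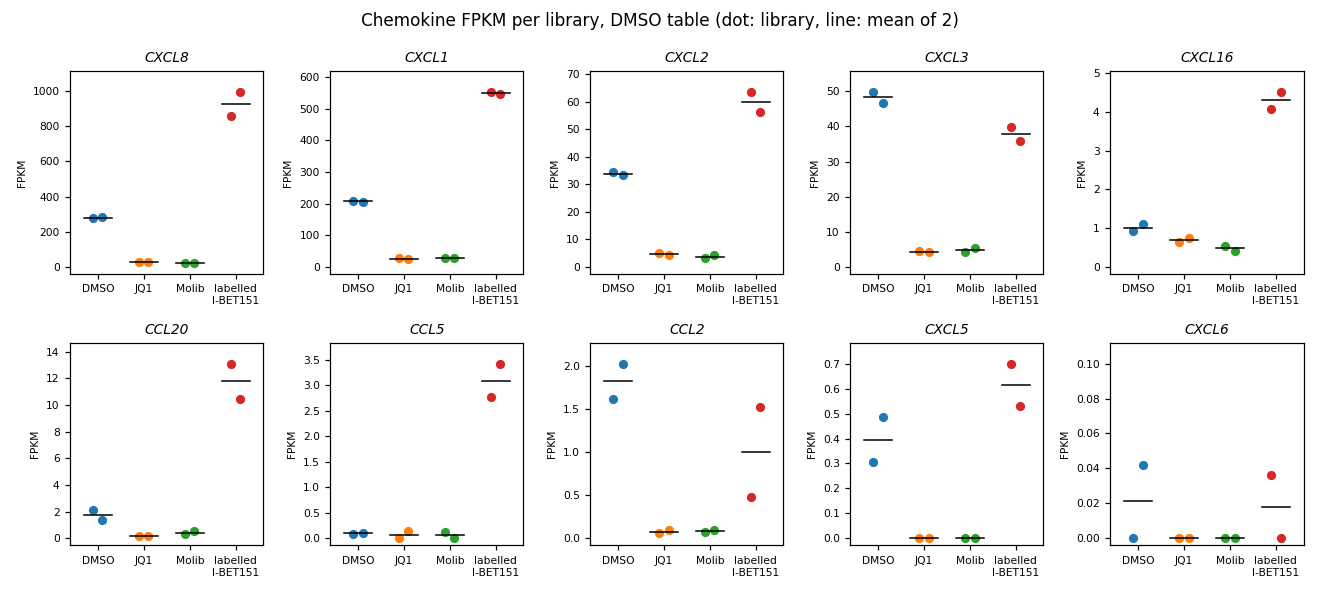
Panels show 1 chemokine gene each from the DMSO table, with FPKM on a linear y axis that differs between panels and the 4 groups on the x axis; dots are libraries and lines the mean of 2. CXCL8 reaches 858 and 995 FPKM in the libraries labelled I-BET151 against 275 and 283 in DMSO and 23.8 to 26.2 in JQ1 and Molib. Of the neutrophil attractants that were tested, only CXCL3 is not above DMSO in the libraries labelled I-BET151.

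The 4 neutrophil attractants were 7.33 to 11.4-fold lower in JQ1 than in DMSO. CXCL8 was at 26.2 and 25.5 FPKM, 10.8-fold below DMSO (log2 fold change -3.38, SE 0.10, limma adjusted p = 2.9e-06). CXCL3 fell to 4.38 and 4.10 (11.4-fold, -3.23), CXCL1 to 27.4 and 23.9 (8.05-fold, -2.96) and CXCL2 to 4.94 and 4.29 (7.33-fold, -2.64). In each of these genes both JQ1 libraries were far below both DMSO libraries. The monocyte attractant CCL2 went from 1.62 and 2.03 FPKM to 0.06 and 0.09 (-1.39, adjusted p = 0.0054) and CCL20 from 2.15 and 1.37 to 0.16 and 0.16 (-1.24, adjusted p = 0.0027). CXCL16, at 0.63 and 0.73 against 0.93 and 1.1, and CCL5, near 0.1 in both groups, did not pass. In all, 6 of 8 members were called, all 6 lower, beside 35.1% of all genes, and the median was -2.01 against -0.04 over all genes. CCL2 had passed the filter only through DMSO, so its call was in part set by it. A fit without the libraries labelled I-BET151, added after the data were seen, tested 6 members and called 6 of them. In that fit CCL2 and CCL20 passed the filter only through DMSO, so this count was in part set by it.

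Molib, a second compound at the same dose and time, gave levels close to those of JQ1. CXCL8 was at 24.0 and 23.8 FPKM (11.7-fold below DMSO, log2 fold change -3.49, limma adjusted p = 2.5e-06), CXCL1 at 26.2 and 27.1, CXCL2 at 3.00 and 4.30 and CXCL3 at 4.09 and 5.43. CCL2 (0.07 and 0.09), CCL20 (0.30 and 0.51) and CXCL16 (0.54 and 0.41) were also called lower, so 7 of 8 members were called, beside 35.3% of all genes. Here too CCL2 had passed the filter only through DMSO. CCL5, listed at 0.12 and 0 in Molib, did not pass (adjusted p = 0.84). The call of CXCL16 (-0.45, adjusted p = 0.04) was lost when any 1 of the 4 libraries was left out (0.086 to 0.17). Between Molib and JQ1 limma called 0 members and 0% of all genes; 0 members and 1227 genes had an unadjusted p under 0.05. The 95% intervals of the log2 difference, Molib minus JQ1, were -0.34 to 0.12 for CXCL8, -0.17 to 0.28 for CXCL1, -0.19 to 0.45 for CXCL3 and -0.64 to 0.08 for CXCL2. For CCL20 the interval was -0.17 to 0.71 and for CCL2 -0.58 to 0.59, so differences of that size in these low genes were not detectable here.

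The libraries labelled I-BET151 had more chemokine RNA than DMSO. CXCL8 was at 858 and 995 FPKM, 3.32-fold above DMSO (log2 fold change 1.72, SE 0.10, limma adjusted p = 8.1e-05), and it was the highest level of any member in any library. CXCL1 was at 552 and 545 (2.66-fold, 1.41, adjusted p = 0.00018) and CXCL2 at 63.5 and 56.5 (1.77-fold, 0.81, adjusted p = 0.0088). CXCL3 was at 40.0 and 35.8, below both DMSO libraries without passing (-0.34, adjusted p = 0.1). CCL20 rose 6.70-fold, to 13.1 and 10.5 FPKM (2.22, adjusted p = 0.0004). CCL5 was at 2.76 and 3.42 against 0.09 and 0.10 (1.89, adjusted p = 0.00044), and CXCL16 at 4.09 and 4.52 (4.24-fold, 1.4, adjusted p = 0.00072). CCL2 was at 0.48 and 1.53, so its 2 libraries were far apart, and did not pass (adjusted p = 0.15). Without replicate 2 of this group it was called lower (-0.93, adjusted p = 0.02). CXCL2 lost its call without DMSO replicate 2 (adjusted p = 0.056). In all, 6 of 8 members were called higher and 0 lower, beside 28.0% of all genes; CCL5 and CXCL16 had passed the filter through these libraries.

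Compared with JQ1 directly, the libraries labelled I-BET151 were higher for all 8 members tested, beside 44.6% of all genes, and compared with Molib also for all 8, beside 43.5%. CXCL8 was 35.8-fold above JQ1 (log2 difference 5.11, limma adjusted p = 5.3e-07), CXCL1 21.4-fold (4.37), CXCL2 13.0-fold (3.44) and CXCL3 8.92-fold (2.89). CCL20 was 73.8-fold above JQ1 and 29-fold above Molib. CXCL16 was 6.31-fold above JQ1 and 9.05-fold above Molib, and CCL5, near 0 in both, stood 1.94 above either on the log2 scale; both genes passed the filter through the libraries labelled I-BET151. The call of CCL2 (0.84 against either) did not hold without I-BET151 replicate 2 (adjusted p = 0.1 and 0.11) and was lost at 0.091 to 0.1 when 1 library of JQ1 or of Molib was left out.

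**Figure D3:**
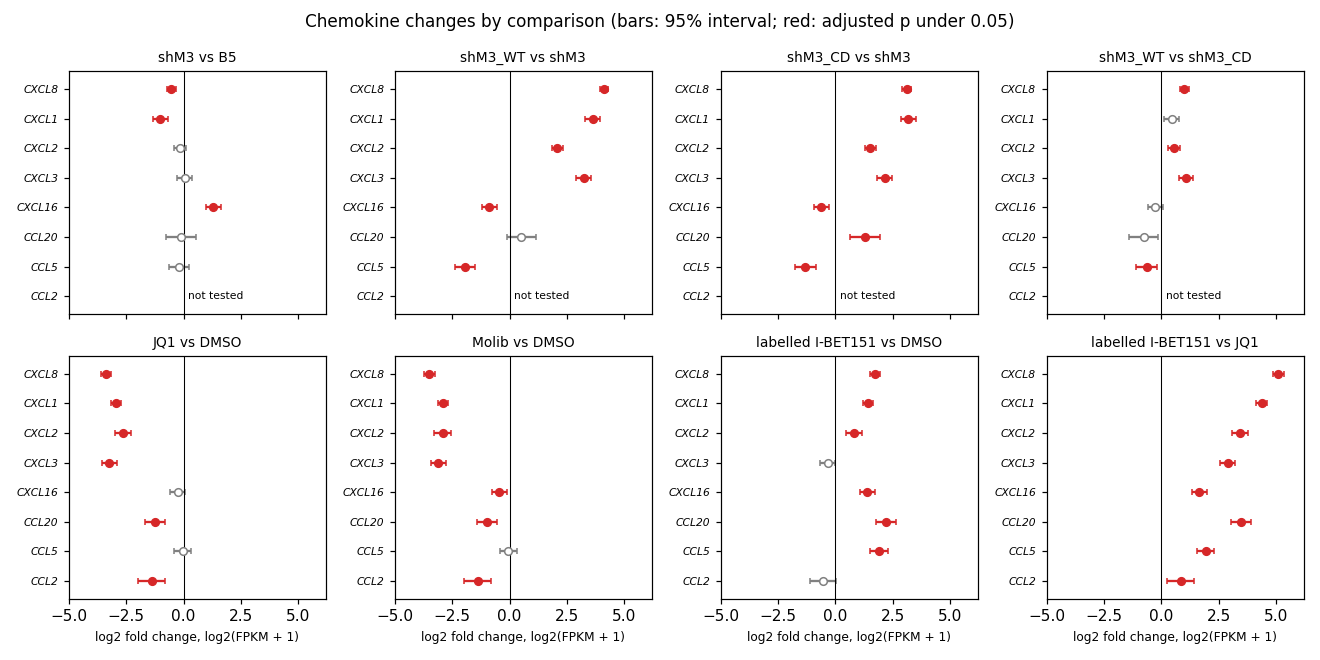
Each panel is 1 comparison, with the log2 fold change of log2(FPKM + 1) on the x axis and 8 chemokine genes on the y axis; points are estimates, bars their 95% intervals, filled red points passed an adjusted p of 0.05 and open grey points did not. CXCL8 lies at 4.12 in shM3_WT against shM3 and at -3.38 in JQ1 against DMSO, and CCL5 lies left of 0 in both comparisons of added-back METTL3 with shM3.

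Pathway genes of the DMSO table followed mixed directions under JQ1. Among upstream cytokines and receptors 9 of 15 fell and 1 rose against DMSO, 66.7% called beside 35.1% of all genes: CSF2 was 67.8-fold, IL1B 25.4-fold and LIF 6.98-fold lower. Of 17 NF-kB genes 4 fell and 0 rose, a share of 23.5% that is below that of all genes, with NFKB1 2.1-fold, IRAK1 3.09-fold and the feedback inhibitor TNFAIP3 2.27-fold lower. Of 16 partner transcription factors 5 rose and 3 fell, and IRF7 (3.32-fold), JUND (2.25-fold) and JUNB (1.90-fold) were higher. Of 12 factors of AU-rich mRNA turnover 3 rose and 5 fell, with DUSP1 2.76-fold higher and ZC3H12A 2.42-fold and HNRNPD 2.04-fold lower. Of 5 other chemokine ligands tested 3 fell, CXCL11, CCL26 and CCL28. MMP1, at the same time, was 4.03-fold higher, MMP14 2.48-fold lower and MMP9 2.46-fold lower; 3 of 6 proteases rose and 2 fell. Of 3 receptors tested CCRL2 fell (2.06-fold).

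Molib against DMSO had 6 of 15 upstream cytokines and receptors lower and 1 higher, with CSF2 50.7-fold, IL1B 25.4-fold and LIF 6.76-fold lower. NFKB1 (2.00-fold), TNFAIP3 (2.63-fold) and IRAK1 (2.65-fold) were among 4 of 17 NF-kB genes that fell (23.5%, beside 35.3% of all genes), and 0 rose. ZFP36, an mRNA decay factor, was 9.72-fold higher, DUSP1 3.01-fold higher and ZC3H12A 2.39-fold lower; in this list of 12, 3 rose and 4 fell. In the libraries labelled I-BET151, 11 of 15 upstream cytokines and receptors were higher than in DMSO and 0 lower, beside 28.0% of all genes, among them CSF2 (4.07-fold), TNFRSF1B (6.88-fold) and LIF (2.18-fold). Of the NF-kB list 7 of 17 were higher and 1 lower, with TNFAIP3 2.96-fold, IKBKB 1.51-fold and NFKB2 1.32-fold higher. The interferon-inducible ligands CXCL11 (7.20-fold) and CXCL10 (17.9 and 26.5 FPKM against 0.05 and 0.83) and the tethered ligand CX3CL1 (20.9-fold) were higher; CXCL10, CX3CL1 and CCL26 passed the filter only through these libraries, as did TNF among the cytokines, so the counts of these lists were in part set by it. The receptors CCRL2 (2.06-fold) and CXCR5 (1.97-fold) were higher there and CXCR4 1.61-fold lower. MMP1 was 6.38-fold, MMP3 3.63-fold and the sheddase ADAM17 1.84-fold higher than in DMSO, and 3 of 6 proteases rose. In the list of AU-rich turnover 4 of 12 rose and 4 fell, with ZFP36L1 2.1-fold and ZFP36L2 2.03-fold higher and HNRNPD 1.85-fold lower. The haematopoietic markers summed to 7.33 and 7.99 FPKM in the libraries labelled I-BET151, 6.92 and 7.00 in DMSO and 0.711 to 1.65 in JQ1 and Molib, with the 2 tested lower in JQ1 and in Molib than in DMSO. The luminal epithelial markers summed to 353 to 370.2 FPKM in DMSO and 640 to 669 in JQ1 and Molib, with 2 of 4 tested higher and 2 lower. The part of these markers in the chemokine differences here was not tested.

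The CTRL table lists 7 of the 10 members; CCL2, CXCL5 and CXCL6 were not analysed here. CXCL8 had 13.7 and 0.38 FPKM in JQ1 against 63.0 and 56.0 in CTRL. CXCL1 had 15.1 and 26.9 in JQ1 against 39.1 and 65.7 in CTRL, and CXCL2 had 12.7 and 13.4 in JQ1 against 47.6 and 26.6 in CTRL. For these 3 genes both JQ1 libraries were below both CTRL libraries, but how many of all genes split in this way was not counted. CXCL3 was listed at 0 and at 11.96 in CTRL and at 5.84 and 0 in JQ1, so the groups overlapped. CCL20 and CXCL16 were listed at 0 in all 4 libraries, and CCL5 in all but CTRL replicate 2, at 9.75. Of the 5 members tested limma called 0 in JQ1 against CTRL, and 0% of all genes. CXCL8 (log2 fold change -3.74), CXCL1 (-1.28) and CXCL2 (-1.38) had adjusted p of 0.22, 0.23 and 0.16, and these 3 members and 2048 of all genes had an unadjusted p under 0.05. The authors' deposited table gives log2 fold changes of -2.41 for CXCL8 (adjusted p = 1.7e-07), -1.66 for CXCL2 (0.00043), -1.38 for CXCL1 (0.025) and 0.7 for HEXIM1 (8.3e-05) from their own test, without naming the groups compared. In the authors' deposited table CXCL3 (-0.24, adjusted p = 0.43) and CCL20, CCL5 and CXCL16 (between -0.04 and 0.03, adjusted p = 0.98) did not pass.

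**Figure D4:**
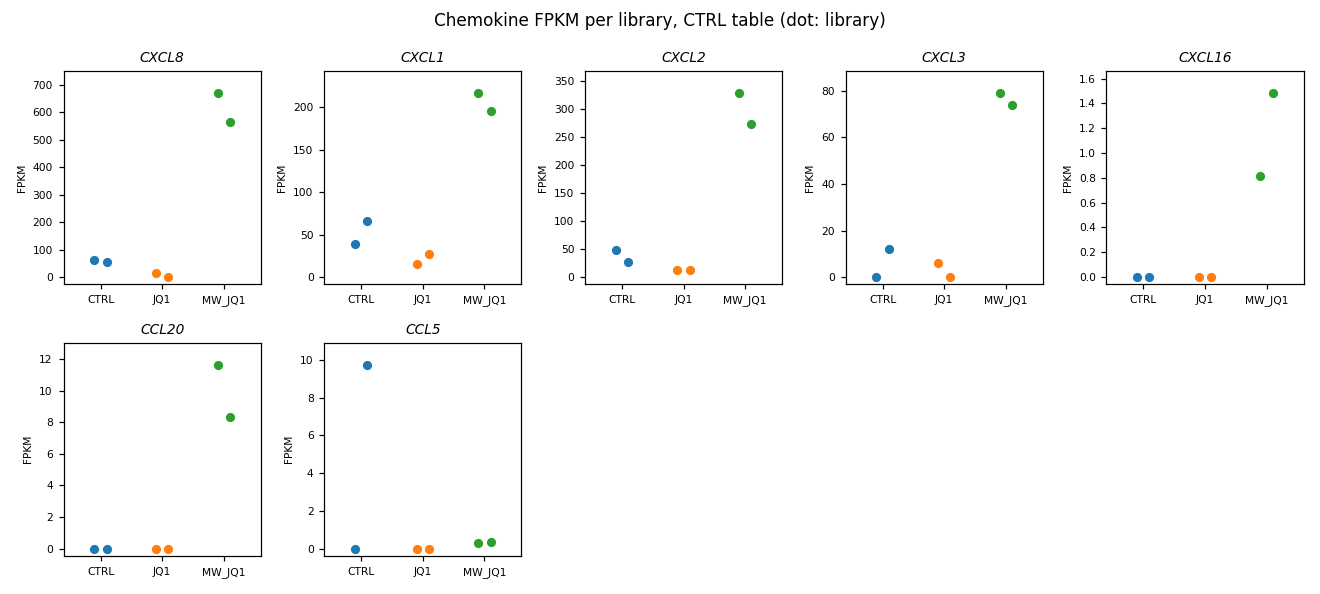
Panels show 1 chemokine gene each from the CTRL table, with FPKM on a linear y axis that differs between panels and the 3 groups on the x axis; dots are libraries. In MW_JQ1 CXCL8 is at 669 and 564 FPKM and CXCL2 at 329 and 274, above all CTRL and JQ1 libraries, while CCL20 and CXCL16 are listed at 0 outside MW_JQ1.

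MW_JQ1 cells, also given JQ1, had high chemokine levels. CXCL8 was at 669 and 564 FPKM (log2 difference from JQ1 7.09, limma adjusted p = 0.015), CXCL2 at 329 and 274 (4.42, adjusted p = 0.0011), CXCL1 at 217 and 195 (3.28, adjusted p = 0.0058) and CCL20 at 11.7 and 8.35, against JQ1 libraries listed at 0. CCL20 passed the filter only through MW_JQ1. CXCL3 was at 79.0 and 74.0 and did not pass (4.89, adjusted p = 0.12), and CXCL16 (0.81 and 1.48) and CCL5 (0.32 and 0.33) were under the filter. In MW_JQ1 against JQ1, 4 of the 5 tested were called higher, beside 15.2% of all genes; the median difference over all genes was 0.75, and the members' median was 4.42. With the libraries set to equal medians CXCL8, CXCL2, CXCL1 and CCL20, the 4 called here, all passed. Against CTRL, CXCL2 (8.12-fold, adjusted p = 0.0041), CXCL1 (3.93-fold, 0.033) and CCL20 were called higher, 3 of 5 beside 15.1% of all genes, with a median over all genes of 0.61. CXCL8, 3.35 on the log2 scale, did not pass (adjusted p = 0.14); it passed with a pseudocount of 5 (0.024) and with only the 2 groups in the fit (0.0045). Without MW_JQ1 replicate 1 or replicate 2, 0 members were called in either comparison, and CCL20 then fell under the filter; against CTRL, CXCL1 also lost its call without CTRL replicate 1 (adjusted p = 0.099) and with equal medians (0.15). The libraries of these groups differ in RN7SL1 and in genes listed at 0, as given above, and the part of that difference in the chemokine values was not tested. Of 8 haematopoietic markers the CTRL table lists 2. Their sum was 0 to 2.3 FPKM in CTRL, 0 to 0.248 in JQ1 and 13.7 to 16.6 in MW_JQ1. The 1 tested, CD14, was called higher in MW_JQ1 against either group, but it passed the filter only through MW_JQ1. The part of CD14 was not tested. METTL3, at 212 and 234 FPKM in MW_JQ1, also differs between the groups. Its part cannot be told apart from that of MW and, against CTRL, from that of JQ1.

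Among pathway genes, 6 of 15 upstream cytokines and receptors were higher in MW_JQ1 than in JQ1 and 0 lower, beside 15.2% of all genes. IL1A, IL1B and TNF of this list and FOS of the partner factors passed the filter only through MW_JQ1, so these counts were in part set by it. IL1B (29.9 and 25.1 FPKM) and IL1A (12.3 and 10.8) were listed at 0 in both JQ1 libraries, and IL6 was at 67.6 and 60.4 against 2.99 and 0.49. TNFAIP3 was at 52.2 and 56.4 FPKM against 0 in both, and NFKB2 (5.14-fold) and NFKBIZ (8.34-fold) were also higher, the 3 of 17 NF-kB genes that passed. FOS (9.62 and 9.37 FPKM against 0.26 and 0), ATF3 (22.7 and 21.7 against 1.75 and 0) and CEBPB (2.46-fold) were the 3 of 15 partner factors that passed, and ZC3H12A (21.3 and 25.3 against 0.07 and 0) was the 1 of 12 factors of AU-rich turnover. The shares called were 17.6% of the NF-kB genes, 20% of the partner factors and 8.33% of the factors of AU-rich turnover. They are near or below the 15.2% of all genes and are no result about these lists.

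The members were also ranked by mean FPKM within each group. In the knockdown and DMSO tables CXCL8 and CXCL1 held the top 2 places in every group, with CXCL1 first in B5, shM3, shM3_CD and Molib and CXCL8 first elsewhere; in shM3 (17.4 and 23.0 against 19.3 and 19.6 FPKM) and JQ1 (23.9 and 27.4 against 25.5 and 26.2) their libraries overlapped. CXCL2 and CXCL3 took the next 2 places except in B5 and shM3, where CCL5, and in shM3 also CXCL16, stood above CXCL3. As a description over 8 libraries that share groups, the Pearson r of log2(FPKM + 1) with CXCL8 in the knockdown table was 1.00 for CXCL2, 0.99 for CXCL3, 0.98 for CXCL1, 0.64 for CCL20, -0.25 for CXCL16 and -0.97 for CCL5. In the DMSO table it was 1.00 for CXCL1, 0.99 for CXCL2, 0.93 for CXCL3 and CCL20, 0.88 for CXCL16, 0.79 for CCL5 and 0.78 for CCL2. Of 9287 other genes that averaged 5 FPKM or more over the knockdown libraries, the 5 most like CXCL8 were CSF2 (0.99), TAGLN2, EEF1AKNMT, PDZK1IP1 and CENPB. CSF2 averaged 9.37 FPKM in B5, 5.55 in shM3, 116 in shM3_WT and 41.9 in shM3_CD. Of 9160 in the DMSO table they were BTG3 (1.00), C15orf48, ITGA5, TNFSF15 and LIF. TNFSF15, a ligand of the tumour necrosis factor family, averaged 33.6 FPKM in the libraries labelled I-BET151, 13.5 in DMSO, 0.686 in JQ1 and 0.75 in Molib.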

How the data were processed

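RNA-seq values of 22 MDA-MB-231 libraries were used. The authors deposited 3 tables of FPKM. The unit is named for 1 table; like format and column sums gave it for the other 2. The CTRL table also holds the authors' log2 fold changes and adjusted p-values, per the file headers. The submitters' processing notes list hg38, HISAT2 2.1.0, Cufflinks 2.2.1 and CASAVA 1.4, with no role for any; the sources used here do not give annotation or strand use.

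Values were transformed to log2(FPKM + 1), and a gene was kept where 2 libraries or more of its table reached 1 FPKM (14638, 14936 and 13261 genes). For each table limma 3.58.1 in R 4.3.3 fitted every group in 1 model (lmFit, contrasts, eBayes with trend), and p-values were adjusted by Benjamini-Hochberg over all genes of that table. In total 15 comparisons were made, none across tables. The scripts were tested on simulated data. Figures were drawn with matplotlib 3.10.9 and pandas 2.3.3 in Python 3.11.15. Read depth is unknown, so intervals from counts were not computed. The planned test for FPKM was used, since the files hold no counts.

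The members and the 11 gene lists were chosen with earlier results of these data known. The rule covers all 10 members, though not every member and check is printed for every comparison, with METTL3 as the targeted gene and HEXIM1 and MYC as checks, and the 5 genes most like CXCL8 in 2 tables. For each pathway list the rule names up to 3 called members with the smallest adjusted p. ADAM10, CXCR1, CXCR2, CXCR6, CCR2 and CCR6 are named as background. RN7SL1, PIDD1 and the neighbours of the chromosome 4 group were chosen after their values were seen, and in places fewer list members than the rule allows are printed. No per-sample column was left unused. Alternatives were pseudocounts of 0.1 and 5, other filters, TMM factors computed without weights, equal medians, only the 2 groups compared, a replicate block, leaving out each library, and, added after the data were seen, leaving out the libraries labelled I-BET151.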

Additional observations from a re-analysis of the deposited data

Results flagged for a closer look

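In the DMSO table the difference of 4 chemokines from DMSO was opposite in the JQ1 libraries and in those labelled I-BET151. These 4 were picked as called in opposite directions against DMSO and also called in the direct comparison. The direct test and the order of the libraries given below follow largely from that choice and are no separate support. The libraries labelled I-BET151 minus JQ1 differed on the log2 scale by 5.11 for CXCL8 (1.72 and -3.38 against DMSO, limma adjusted p = 5.3e-07), by 4.37 for CXCL1 (1.41 and -2.96, adjusted p = 9.5e-07), by 3.46 for CCL20 (2.22 and -1.24, adjusted p = 2.7e-05) and by 3.44 for CXCL2 (0.81 and -2.64, adjusted p = 1.4e-05). Both libraries labelled I-BET151 were above both DMSO libraries and both JQ1 libraries below them for each of these 4 genes. HEXIM1 differed in the opposite direction, at 10.3 and 6.37 FPKM in the libraries labelled I-BET151 and 73.8 and 76.7 in JQ1. What the libraries labelled I-BET151 received was not tested.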

How the results depend on the processing

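Of 1196 values of members under alternatives, 1108 kept their direction and their side of the threshold, 57 lost the threshold, 17 gained it and 14 changed sign. Counts of members called moved most where libraries or low genes were dropped. With a filter of 5 FPKM, 4 members were called in shM3_CD against shM3 and against B5 and 5 in the libraries labelled I-BET151 against JQ1 and against Molib; these are all the members that filter left. With a pseudocount of 5, 5 were called in MW_JQ1 against CTRL. Leaving out 1 library gave 4 to 6 members called in shM3_CD against shM3, 2 to 3 in shM3_WT against shM3_CD, 0 to 4 in MW_JQ1 against JQ1 and 0 to 3 in MW_JQ1 against CTRL; the cause was not tested. With 1 library left in a group, it is assumed to vary like the other groups.

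The sign of uncalled log2 fold changes turned when 1 library was left out: in shM3 against B5 CXCL3 ran from -0.085 to 0.162 and CCL20 from -0.466 to 0.223, CCL5 ran from -0.135 to 0.049 in JQ1 and from -0.135 to 0.034 in Molib against DMSO, and in Molib against JQ1 CXCL1 ran from -0.037 to 0.152, CXCL3 from -0.042 to 0.296, CCL2 from -0.016 to 0.025 and CCL5 from -0.1 to 0.085. In JQ1 against CTRL CXCL3 ran from -2.309 to 1.387.

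Libraries share replicate numbers and no stated pairing: deviations of same-numbered libraries correlated at -0.031 to 0.035 in the knockdown table, -0.123 to 0.042 in the DMSO table and -0.032 to 0.028 in the CTRL table. With a replicate block, which leaves out JQ1 of the DMSO table, 6 members were called in shM3_CD against shM3 (CXCL16 lost, adjusted p = 0.055), 6 in shM3_WT against shM3_CD (CXCL1 at 0.034 and CCL20 at 0.04 gained), and 6 in Molib against DMSO (CXCL16 lost, 0.093); the block changed no other member's call.

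Counts over all genes moved by over 1.5 times in some fits. Leaving out 1 library gave 500 to 569 calls for shM3_CD against shM3 (1670), 1781 to 1955 for shM3_WT against shM3_CD (3785), 2854 to 3047 for JQ1 against DMSO (5238), 3056 to 3250 for Molib against DMSO (5273) and, without either MW_JQ1 library, 46 to 50 for MW_JQ1 against JQ1 or CTRL (2010 and 2009). Without an shM3 library shM3 against B5 had 3654 and 3683 (5534), without an shM3_WT library shM3_WT against B5 had 2642 and 2739 (4386), without an shM3_CD library shM3_CD against B5 had 2383 and 2499 (4384), and without a DMSO library the libraries labelled I-BET151 against DMSO had 1940 and 2001 (4181; 2461 with only these 2 groups and 2724 with the block). A filter of 5 FPKM gave 742 and 710 for MW_JQ1 against JQ1 and CTRL; only the 2 groups gave 3135 against JQ1, and leaving out CTRL replicate 2 gave 3444 against CTRL and 492 for JQ1 against CTRL (0; 6 with a pseudocount of 0.1). Molib against JQ1 had 0 or 1. Of genes called, the share that was higher moved with the scaling for shM3_WT: from 39.5% to 57.3% with equal medians against shM3_CD, from 39.4% to 56.5% against B5 and from 42.5% to 52.8% with TMM factors against shM3. For MW_JQ1 against JQ1 it went from 89.3% to 79.5% with equal medians. The median log2 difference over all genes then went from 0.749 to 0.151, and against CTRL from 0.612 to 0.139. Without either MW_JQ1 library most of the genes called against JQ1 or CTRL were lower.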

Other observations

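Within 500 kb of the chromosome 4 group lie 12 other protein-coding genes, of which 4 were tested, AREG, EREG, ANKRD17 and MTHFD2L. AREG, an epidermal growth factor receptor ligand, had 122 and 119 FPKM in the libraries labelled I-BET151 against 28.9 and 29.8 in DMSO and 25.5 and 24.1 in JQ1, 4.11-fold above DMSO (limma adjusted p = 3.4e-05). In JQ1 against DMSO the limma adjusted p of these 4 neighbours ran from 0.071 to 0.91. In shM3_WT against shM3, AREG was 1.42-fold higher (adjusted p = 0.0055), EREG 2.25-fold higher (0.0051), MTHFD2L 1.47-fold higher (0.049) and ANKRD17 1.65-fold lower (0.0016). AREG had been 1.86-fold lower in shM3 than in B5 (adjusted p = 0.00057) and EREG 3.92-fold lower (0.00043).

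MYC, read as a second BET inhibitor check, lay between 3.43 and 6.13 FPKM in the 8 libraries of the DMSO table and did not pass in any comparison there. In the CTRL table MYC was at 35.8 and 45.4 in CTRL, 14.3 and 35.5 in JQ1 and 6.56 and 6.35 in MW_JQ1, and was called lower in MW_JQ1 than in CTRL (log2 fold change -2.47, limma adjusted p = 0.037).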
